A study of Mus musculus with 2 samples.

Results

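The genes described here are 48 chromatin remodellers and histone modifiers, chosen by name as members of known enzyme families and complexes, and all 48 were found among the 24411 gene rows of the count files. They comprise 9 CHD remodellers, 2 ARID subunits, *Adnp* and *Pogz*, 9 histone demethylases, 10 histone deacetylases, 10 histone methyltransferases, the 4 core genes of Polycomb repressive complex 2 (PRC2) and 2 histone acetyltransferases. RNA was measured by bulk RNA-seq in 2 areas of mouse brain at embryonic day 16.5 (E16.5), the subventricular zone (SVZ), a zone of dividing neural progenitors, and the cortex, in which newborn neurons collect. Both areas were cut by laser capture microdissection (LCM), which excises chosen tissue from a stained section under a microscope, from fresh frozen sections stained with haematoxylin and eosin, and no treatment or genetic change is given for either. Each area gave 1 library, a dissected piece holds a mixture of cell types, and the number of embryos behind a library, their strain and their sex are not stated by the labels or the paper's methods. In the study these libraries were the reference for a light-directed barcoding method, which was not analysed here.

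DNA in the nucleus is wound around histones, and the enzymes described here set how open that packing is. Remodellers such as the CHD proteins use ATP to slide or evict nucleosomes, while writers and erasers add or remove acetyl and methyl groups on histone tails, among them the repressive H3K27 methylation laid down by PRC2 and the H3K4 methylation linked to active genes. In the developing cortex these enzymes accompany the passage from dividing progenitors to neurons, and many of the genes are mutated in human neurodevelopmental disorders.

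Gene-assigned reads numbered 51435667 in the SVZ and 22050693 in the cortex, which was sequenced 2.33 times less deeply, so that 1 read equalled 0.0194 CPM in the former and 0.0453 CPM in the latter (CPM is a gene's reads per 1000000 gene-assigned reads of the library). Because neither area was replicated, the areas were not tested against each other and no difference below has a replicate check. Each log2 ratio, always SVZ over cortex, was taken on CPM and is given with an exact (Clopper-Pearson) 95% interval. This counting interval takes every read as independent and covers no variation between samples. PCR copies are not independent molecules, so it may be too narrow even for counting error. The labels were checked against marker genes. All 9 apical progenitor markers, all 5 intermediate progenitor markers and all 10 proliferation markers were higher in the SVZ, with summed levels of 6622 against 143 CPM, 986 against 51.2 CPM and 2018 against 131 CPM. *Fabp7* alone gave 4973 CPM of the apical progenitor sum in the SVZ. All 10 pan-neuronal markers were higher in the cortex, with a summed level of 9974 CPM against 2377 CPM in the SVZ, as were all 5 deep-layer neuron markers, so the SVZ piece also held neuronal RNA. Of other cell types, all 5 microglial markers (35.6 against 4.81 CPM summed) and all 4 choroid plexus markers (248 against 2.09 CPM) were higher in the SVZ. *Ttr* alone gave 240 CPM of the choroid plexus sum in the SVZ. The other choroid plexus markers and all 5 microglial markers had a mean under 10 CPM. Markers of interneurons (119 against 124 CPM) and blood vessels (67.6 against 57.1 CPM) were close in summed level, and those of meninges (3.66 against 5.71 CPM) were low in both. Single markers lay on both sides, with 4 interneuron markers higher in the SVZ and 2 in the cortex, and 3 and 2 vessel markers. Close sums therefore do not show equal levels of each marker. Of 4 erythroid markers, 3 globin genes had 0 reads in both, so the erythroid sum (14.8 against 7.48 CPM) is that of *Alas2* alone. Why those 3 had no reads was not tested, and the list does not measure erythroid RNA. The part of these cells in the ratios below was not tested.

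A mean of 10 CPM or more over the 2 libraries was reached by 46 of the 48 genes, and *Chd5* and *Adnp* did not. Most lay close to equality. In 37 of the 46 genes (80.4%) the CPM of the areas differed by less than 2-fold, against 72.8% of the 9027 genes with that mean. On the SVZ side 6 genes passed 2-fold (13.0%), beside a background of 14.9% of all genes, and on the cortex side 3 genes did (6.52%), beside a background of 12.3%. At least 4-fold higher in the SVZ were 3 genes, where the background was 6.75%, and none was 4-fold higher in the cortex, where the background was 4.7%. The counting interval excluded equal CPM for 39 genes (84.8%), with a background of 89.3%. At these depths an interval that takes reads as independent is narrow and excludes equality even for small ratios. Its exclusion of equality therefore does not show a difference between the areas. The median log2 ratio was 0.04 with quartiles of −0.30 and 0.46, beside a median of 0.10 with quartiles of −0.46 and 0.61 over all genes. On each side of equality lay 23 genes, while 55.2% of all genes were higher in the SVZ. Under TMM scaling the median of the 46 genes turned to −0.05, beside 0.01 over all genes. As a set, then, these genes had shares past 2-fold no larger than those of all genes at the main settings, and the differences were carried by individual family members. On the SVZ side this rests on a count that *Ezh2* (log2 ratio 0.999) and *Suz12* (0.990) only just missed. The SVZ-high genes were *Chd7*, *Hdac9*, *Hdac1*, *Eed*, *Hdac8* and *Chd6*, of which *Chd6* lay inside 2-fold at 0.95 under TMM scaling, and the cortex-high genes were *Ezh1*, *Chd3* and *Hdac11*. In bulk samples such as these, fewer cells of a type and less RNA per cell cannot be told apart.

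**Figure D1:**
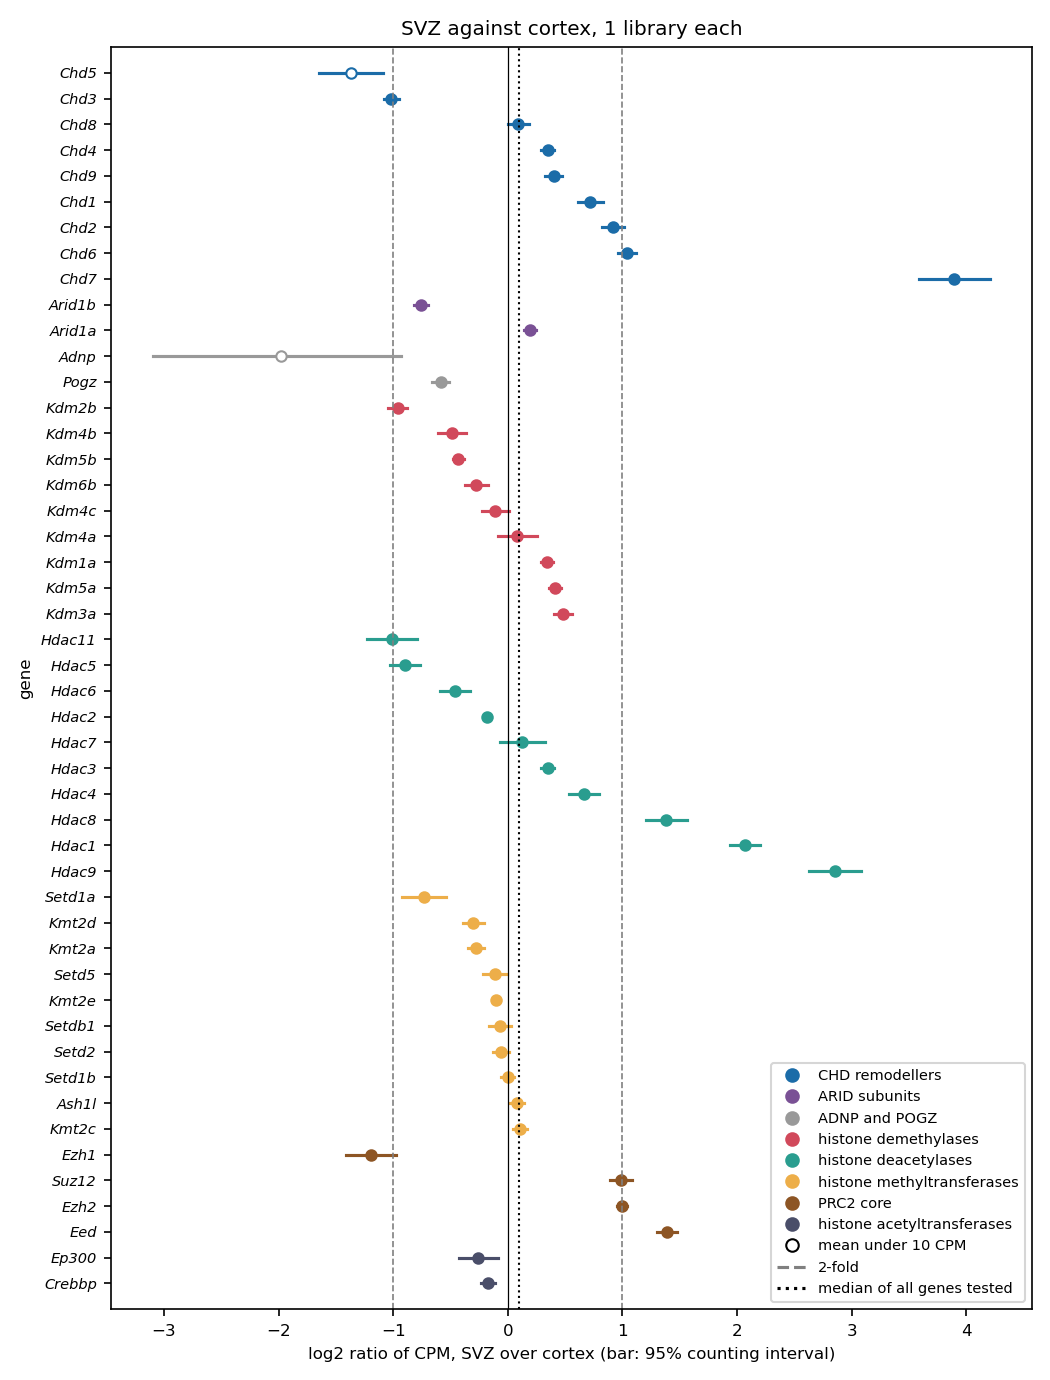
Log2 CPM ratio, SVZ over cortex, on the x axis for each of the 48 genes on the y axis, coloured by role, with bars for the exact 95% counting interval, open points for the 2 genes with a mean under 10 CPM, dashed lines at 2-fold and a dotted line at the median of all genes. Most points lie between the dashed lines, with *Chd7* (3.89), *Hdac9* (2.85) and *Hdac1* (2.07) farthest to the SVZ side.

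PRC2 methylates histone H3 at lysine 27 and holds developmental genes silent. Its catalytic subunit is *Ezh2* or *Ezh1*, and *Eed* and *Suz12* encode the subunits that the catalytic subunit needs for activity. The promoters of these 4 genes are shown because 3 of them were higher in the SVZ and the fourth, the alternative catalytic subunit, was higher in the cortex. Each is the RefSeq window on GRCm38.p6 from 250 bases before to 50 bases after a gene start, read 5′ to 3′ on the gene's strand, and capitals mark a match to the E2F-like letters TTTGGCGC, TTTGGCGG, TTTCCCGC or TTTCGCGC, searched on both strands. The *Ezh2* window lies at chr6:47594981-47595280 on the minus strand, the *Suz12* window at chr11:79992856-79993155 on the plus strand, the *Eed* window at chr7:89980927-89981226 on the minus strand and the *Ezh1* window at chr11:101226414-101226713 on the minus strand.
Ezh2: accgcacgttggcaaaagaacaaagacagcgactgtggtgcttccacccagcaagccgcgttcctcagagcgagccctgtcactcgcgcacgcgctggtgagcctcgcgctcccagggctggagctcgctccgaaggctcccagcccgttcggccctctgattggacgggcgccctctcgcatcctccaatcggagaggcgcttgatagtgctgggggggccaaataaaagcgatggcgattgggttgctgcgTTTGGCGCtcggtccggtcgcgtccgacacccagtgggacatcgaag
Suz12: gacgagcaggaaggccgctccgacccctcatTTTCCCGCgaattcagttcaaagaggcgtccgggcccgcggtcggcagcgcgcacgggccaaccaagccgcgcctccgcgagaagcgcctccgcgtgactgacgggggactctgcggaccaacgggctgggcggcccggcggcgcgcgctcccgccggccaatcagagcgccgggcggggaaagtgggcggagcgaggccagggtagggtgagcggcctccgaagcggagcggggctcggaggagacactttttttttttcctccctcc
Eed: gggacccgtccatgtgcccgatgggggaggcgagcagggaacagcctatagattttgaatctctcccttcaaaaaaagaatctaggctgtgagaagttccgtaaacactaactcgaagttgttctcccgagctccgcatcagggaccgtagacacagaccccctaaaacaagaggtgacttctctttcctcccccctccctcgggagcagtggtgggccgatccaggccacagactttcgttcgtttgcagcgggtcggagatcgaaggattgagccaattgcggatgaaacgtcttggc
Ezh1: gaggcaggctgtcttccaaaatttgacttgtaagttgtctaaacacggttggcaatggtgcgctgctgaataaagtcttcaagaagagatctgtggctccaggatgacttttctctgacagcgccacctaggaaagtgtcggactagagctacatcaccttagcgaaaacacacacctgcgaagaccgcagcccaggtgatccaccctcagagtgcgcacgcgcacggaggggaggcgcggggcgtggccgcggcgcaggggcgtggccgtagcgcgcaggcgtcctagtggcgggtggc
*Ezh2* held TTTGGCGC from position 254 of its window and *Suz12* held TTTCCCGC from position 32, counted from the 5′ end, and none of these letters stood in the *Eed* and *Ezh1* windows. RefSeq windows were matched for 36 of the 48 genes. Of these, 4 held a match (11.1%), 1 each, the other two being *Arid1a* and *Hdac6*, against 730 of 27025 genes with a window (2.701%) and 373 of the 6997 such genes that reached a mean of 10 CPM (5.33%). The 4 SVZ-high and 2 cortex-high genes with a window held none, and *Chd7*, *Hdac1* and *Chd3* had no matched window. A match is a description of the sequence and not evidence of binding.

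The core genes of PRC2 did not all lie on the same side. *Eed*, whose protein reads the methyl mark that the complex lays down, had 7404 reads in the SVZ and 1214 in the cortex, or 144 CPM against 55.1 CPM, a log2 ratio of 1.39 (1.30 to 1.48). *Ezh2*, the catalytic subunit of dividing cells, had 24478 and 5251 reads, or 476 CPM against 238 CPM, a log2 ratio of 1.00 (0.96 to 1.04) and a fold of 1.998 that fell just short of 2. *Suz12*, the scaffold of the complex, had 5095 and 1100 reads, or 99.1 CPM against 49.9 CPM, a log2 ratio of 0.99 (0.90 to 1.08). These 3 subunits were thus all about 2-fold or more higher in the SVZ. *Ezh1*, the catalytic paralogue typical of non-dividing cells, went the other way with 343 and 336 reads, or 6.67 CPM in the SVZ against 15.2 CPM in the cortex, a log2 ratio of −1.19 (−1.41 to −0.97). *Ezh2* still supplied most of the reads of the pair in both areas, at 98.6% (98.5 to 98.8%) in the SVZ and 94.0% (93.3 to 94.6%) in the cortex. Summed over the 4 genes, the level was 726 CPM in the SVZ and 358 CPM in the cortex. Progenitor and proliferation markers were also higher in the SVZ, as given above.

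Histone deacetylases remove acetyl groups and mostly accompany repression. The 10 genes held the widest spread after the CHD genes, from −1.01 to 2.85 on the log2 ratio scale, with a median of 0.24. At least 2-fold higher in the SVZ were 3 and in the cortex 1, beside backgrounds of 14.9% and 12.3% of all genes. Class I, the mainly nuclear enzymes, comprises *Hdac1*, *Hdac2*, *Hdac3* and *Hdac8*. *Hdac1* had 5272 reads in the SVZ and 538 in the cortex, or 102.5 CPM against 24.4 CPM, a log2 ratio of 2.07 (1.94 to 2.20). Its close paralogue *Hdac2*, which joins the same complexes, had 25762 and 12501 reads, or 501 CPM against 567 CPM, a log2 ratio of −0.18 (−0.21 to −0.15). *Hdac1* therefore made up 17.0% (16.6 to 17.4%) of the reads of the pair in the SVZ and 4.13% (3.79 to 4.48%) in the cortex, while *Hdac2* was the more counted of the pair in both areas. Of all 75-base words in the *Hdac1* transcript, 52.5% also occur in other annotated genes, among them the copies *Gm10093* and *Gm4864*, so its reads may be undercounted in both libraries, and the effect on the ratio was not tested. Shared words and exon overlaps here and below are those of GENCODE M21, which may differ from the annotation the authors counted with. *Hdac8*, which acts on cohesin as well as on histones, had 1774 and 292 reads, or 34.5 CPM against 13.2 CPM, a log2 ratio of 1.38 (1.20 to 1.56). *Hdac3*, the catalytic subunit of the NCoR and SMRT corepressors, was within 2-fold at 191 CPM in the SVZ and 150 CPM in the cortex, a log2 ratio of 0.35 (0.29 to 0.41).

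Class IIa deacetylases shuttle between nucleus and cytoplasm and bind MEF2 transcription factors. *Hdac9* had 2809 reads in the SVZ and 167 in the cortex, or 54.6 CPM against 7.57 CPM, a log2 ratio of 2.85 (2.62 to 3.08) and a fold of 7.21. *Hdac5* lay on the other side with 1083 and 866 reads, or 21.1 CPM against 39.3 CPM, a log2 ratio of −0.90 (−1.03 to −0.77). *Hdac4* had 43.9 CPM in the SVZ and 27.7 CPM in the cortex, a log2 ratio of 0.67 (0.54 to 0.80), and *Hdac7* had 14.8 CPM and 13.6 CPM, a log2 ratio of 0.13 (−0.07 to 0.32) whose interval held equality. Within this class of 4 genes the leading member therefore differed between the libraries. *Hdac9* gave 40.7% (39.5 to 41.8%) of the class's reads in the SVZ and 8.60% (7.39 to 9.94%) in the cortex, and *Hdac5* gave 15.7% (14.8 to 16.6%) in the SVZ and 44.6% (42.4 to 46.8%) in the cortex. *Hdac4* held 32.7% (31.6 to 33.8%) in the SVZ and 31.4% (29.4 to 33.5%) in the cortex, intervals that overlapped. Such shares are taken within a library and do not depend on how the libraries are scaled to each other. Set per transcript length, *Hdac9* still led in the SVZ with 34.2% of the class and *Hdac5* in the cortex with 51.6%.

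The remaining deacetylases were higher in the cortex. *Hdac11*, the only class IV enzyme, had 371 reads in the SVZ and 320 in the cortex, or 7.21 CPM against 14.5 CPM, a log2 ratio of −1.01 (−1.23 to −0.79). Its interval held values on both sides of 2-fold, and 21.1% of its 75-base words also occur in *Gm44002* and *Gm14573*. *Hdac6*, a cytoplasmic enzyme that deacetylates tubulin, had 24.7 CPM in the SVZ and 34.0 CPM in the cortex, a log2 ratio of −0.46 (−0.59 to −0.33).

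**Figure D2:**
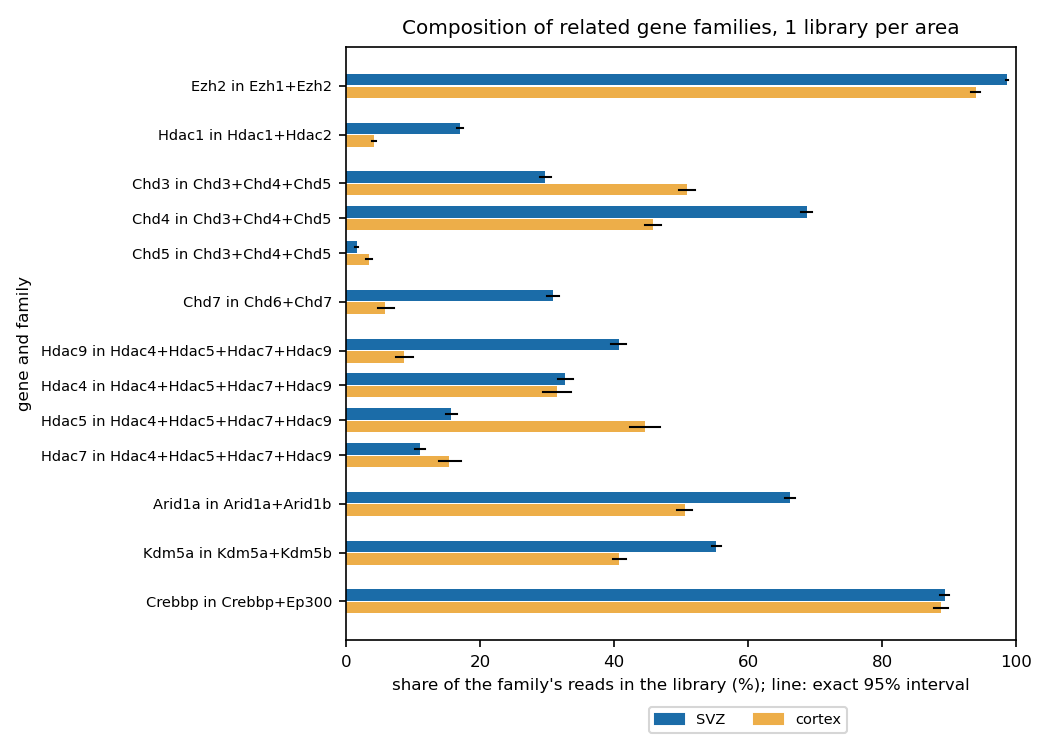
Share of a family's reads (x axis, %) that came from the named gene (y axis), in the SVZ library and the cortex library, with lines for exact 95% binomial intervals of the counts. *Hdac9* and *Chd7* have larger shares in the SVZ, *Hdac5* and *Chd3* have larger shares in the cortex, and the *Crebbp* shares of 89.4% and 88.8% have overlapping intervals.

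CHD proteins are ATP-dependent remodellers that carry paired chromodomains. Of the 9 genes, 8 had a mean of at least 10 CPM, and their median log2 ratio was 0.56. Higher in the SVZ were 7 of these, beside 55.2% of all genes of that mean. Among the 7, *Chd8* turned to −0.002 under TMM scaling. *Chd7*, which is mutated in CHARGE syndrome and acts at enhancers of neural stem cells, had 3110 reads in the SVZ and 90 in the cortex, or 60.5 CPM against 4.08 CPM. Its log2 ratio of 3.89 (3.59 to 4.21), a fold of 14.8, was the highest of the 48 genes. *Chd6*, of the same subfamily, had 6969 and 1453 reads, or 135 CPM against 65.9 CPM, a log2 ratio of 1.04 (0.96 to 1.12). As a result *Chd7* gave 30.9% (30.0 to 31.8%) of the reads of this pair in the SVZ and 5.83% (4.72 to 7.12%) in the cortex. The other pair of the subfamily lay near equality. *Chd8*, a gene strongly linked to autism, had 3300 and 1328 reads, or 64.2 CPM against 60.2 CPM, a log2 ratio of 0.09 (−0.0011 to 0.18) whose interval held equality. *Chd9* had 5899 and 1914 reads, or 115 CPM against 86.8 CPM, a log2 ratio of 0.40 (0.33 to 0.48). It gave 64.1% (63.1 to 65.1%) of the reads of the *Chd8* and *Chd9* pair in the SVZ and 59.0% (57.3 to 60.7%) in the cortex.

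*Chd3*, *Chd4* and *Chd5* encode alternative ATPases of the NuRD complex, which couples remodelling to deacetylation by HDAC1 and HDAC2. *Chd3* had 3911 reads in the SVZ and 3388 in the cortex, or 76.0 CPM against 154 CPM, a log2 ratio of −1.01 (−1.08 to −0.95). *Chd4* had 9054 and 3051 reads, or 176 CPM against 138 CPM, a log2 ratio of 0.35 (0.29 to 0.41). *Chd5*, known as the neuronal member, was under the minimum with 204 and 226 reads, or 3.97 CPM against 10.2 CPM, a log2 ratio of −1.37 (−1.65 to −1.09). The order of the ATPases thus differed between the libraries. *Chd4* took 68.8% (68.0 to 69.5%) of their reads in the SVZ and 45.8% (44.6 to 47.0%) in the cortex, and *Chd3* took 29.7% (28.9 to 30.5%) in the SVZ and 50.8% (49.6 to 52.0%) in the cortex. Per transcript length the cortex shares were closer, at 49.3% for *Chd3* and 48.2% for *Chd4*. *Chd5* remained a small part, at 1.55% (1.35 to 1.77%) in the SVZ and 3.39% (2.97 to 3.85%) in the cortex. *Chd1*, which binds H3K4 methylation at active genes, had 66.0 CPM in the SVZ and 40.0 CPM in the cortex, a log2 ratio of 0.72 (0.61 to 0.83), and its relative *Chd2*, a gene of childhood epilepsy, had 93.9 CPM and 49.8 CPM, a log2 ratio of 0.92 (0.82 to 1.01).

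*Arid1a* and *Arid1b* encode mutually exclusive DNA-binding subunits of BAF remodelling complexes. *Arid1a* had 10508 reads in the SVZ and 3948 in the cortex, or 204 CPM against 179 CPM, a log2 ratio of 0.19 (0.14 to 0.24). *Arid1b*, a gene of Coffin-Siris syndrome, had 5337 and 3867 reads, or 104 CPM against 175 CPM, a log2 ratio of −0.76 (−0.82 to −0.70). *Arid1a* therefore gave 66.3% (65.6 to 67.1%) of the pair's reads in the SVZ and 50.5% (49.4 to 51.6%) in the cortex. Per transcript length its shares were 73.1% and 58.5%, the larger of the pair in both areas. *Pogz*, a zinc finger protein that binds heterochromatin protein 1, had 71.9 CPM in the SVZ and 108 CPM in the cortex, a log2 ratio of −0.58 (−0.66 to −0.51). *Adnp*, which works with CHD4 in a repressive complex, was counted at 13 reads in the SVZ and 22 in the cortex, or 0.25 CPM against 1.00 CPM. Its log2 ratio was −1.98 with a wide interval (−3.09 to −0.93). The annotated gene *Gm20716*, on the same strand, shares 82.1% of the *Adnp* exon bases in GENCODE M21, and with such an annotation a counter that drops reads lying in 2 genes would lose them. Whether this happened here was not tested, and the level is given as counted.

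Histone methyltransferases had the smallest spread of the classes with more than 2 genes. All 10 lay within 2-fold, as did 72.8% of all genes that reached a mean of 10 CPM. The 10 ran from −0.73 to 0.11 on the log2 ratio scale, with a median of −0.08. Of the 10, 8 were higher in the cortex, beside 44.8% of all genes that reached a mean of 10 CPM. Among these 8, *Setd1b*, *Setd2* and *Setdb1* had intervals that held equality. Under TMM scaling *Ash1l* joined the cortex side at −0.01. The H3K4 methyltransferases of the MLL family were led by *Kmt2e*, a family member with little or no enzyme activity of its own, at 541 CPM in the SVZ and 580 CPM in the cortex, a log2 ratio of −0.10 (−0.13 to −0.07). *Kmt2a*, the MLL1 gene, had 93.1 CPM and 113 CPM, a log2 ratio of −0.28 (−0.35 to −0.21). *Kmt2c* and *Kmt2d*, which methylate H3K4 at enhancers, had log2 ratios of 0.11 (0.05 to 0.17) and −0.30 (−0.39 to −0.21). Of the SET1 pair, which places most H3K4 trimethylation, *Setd1b* was at almost the same level in both areas, 149 CPM against 149.5 CPM, while *Setd1a*, a schizophrenia risk gene, had 10.3 CPM against 17.1 CPM, a log2 ratio of −0.73 (−0.92 to −0.53). *Setd1a* shares 51.8% of its exon bases with *Gm49388* on the same strand, and the effect was not tested. The genes for other marks were also near equality, with *Setd2* (H3K36 trimethylation) at −0.06 (−0.13 to 0.01), *Setdb1* (H3K9 methylation of retroelements) at −0.07 (−0.16 to 0.03), *Setd5* at −0.11 (−0.21 to −0.0036) and *Ash1l* (H3K36 methylation) at 0.08 (0.02 to 0.15) on the log2 ratio scale.

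Histone demethylases also showed no gene past 2-fold among 9, with log2 ratios from −0.96 to 0.48 and a median of −0.11, although *Kdm2b* passed it at −1.05 under TMM scaling. Of all genes that reached a mean of 10 CPM, 72.8% lay within 2-fold. The gene farthest from equality was *Kdm2b*, which recruits a variant Polycomb complex to unmethylated CpG islands, with 2813 reads in the SVZ and 2348 in the cortex, or 54.7 CPM against 106 CPM, a log2 ratio of −0.96 (−1.04 to −0.88). On the other side stood *Kdm3a*, an H3K9 demethylase, with 111 CPM against 79.9 CPM, a log2 ratio of 0.48 (0.40 to 0.56). *Kdm1a*, or LSD1, the demethylase of the CoREST complex, had 216 CPM against 170 CPM, a log2 ratio of 0.34 (0.29 to 0.40). The H3K4 demethylases *Kdm5a* and *Kdm5b* lay on opposite sides of equality. *Kdm5a* had 12158 and 3925 reads, or 236 CPM against 178 CPM, a log2 ratio of 0.41 (0.36 to 0.46), and *Kdm5b* had 9858 and 5700 reads, or 192 CPM against 258 CPM, a log2 ratio of −0.43 (−0.48 to −0.38). *Kdm5a* accordingly gave 55.2% (54.6 to 55.9%) of the pair's reads in the SVZ and 40.8% (39.8 to 41.8%) in the cortex. Per transcript length its shares were 49.5% and 35.4%. *Kdm6b*, which removes the mark of PRC2, was slightly higher in the cortex at 58.0 CPM against 47.9 CPM, a log2 ratio of −0.27 (−0.37 to −0.18). The H3K9 and H3K36 demethylases *Kdm4a*, *Kdm4b* and *Kdm4c* had log2 ratios of 0.08 (−0.08 to 0.25), −0.49 (−0.61 to −0.36) and −0.11 (−0.22 to 0.01).

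*Crebbp* and *Ep300* encode the paralogous acetyltransferases CBP and p300, coactivators that acetylate enhancers. *Crebbp* had 6898 reads in the SVZ and 3334 in the cortex, or 134 CPM against 151 CPM, a log2 ratio of −0.17 (−0.23 to −0.11). *Ep300* had 820 and 420 reads, or 15.9 CPM against 19.0 CPM, a log2 ratio of −0.26 (−0.43 to −0.08). *Crebbp* gave 89.4% (88.7 to 90.1%) of the pair's reads in the SVZ and 88.8% (87.8 to 89.8%) in the cortex, with intervals that overlapped, unlike those of the PRC2, class I, CHD, ARID and *Kdm5* pairs above.

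Several genes lay close to the 2-fold limit, at a log2 ratio of 1. Just past it were *Chd6* at 1.04, *Hdac11* at −1.01 and *Chd3* at −1.01. Just inside it were *Ezh2* at 1.00, *Suz12* at 0.99, *Kdm2b* at −0.96, *Chd2* at 0.92 and *Hdac5* at −0.90. For all 8 of these genes the counting interval held the limit itself.

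Levels can be compared between genes only per transcript length, here as CPM divided by the transcript's length in kilobases (RPKM). The length, here and in the per-length shares above, is that of each gene's longest annotated protein-coding transcript. Which transcript was expressed was not tested. In the SVZ the most abundant of the 48 genes were *Ezh2* at 171 RPKM, *Hdac2* at 154 RPKM, *Hdac3* at 94.0 RPKM, *Kmt2e* at 73.9 RPKM and *Kdm1a* at 71.4 RPKM. In the cortex they were the same 5 genes in another order, *Hdac2* at 174 RPKM, *Ezh2* at 85.4 RPKM, *Kmt2e* at 79.3 RPKM, *Hdac3* at 73.8 RPKM and *Kdm1a* at 56.3 RPKM. *Ezh2* was thus first in the SVZ and second in the cortex. The largest moves in rank belonged to *Hdac8*, from 14 in the SVZ to 33 in the cortex, and *Chd6*, from 16 to 34, while *Chd7* (36 and 47) and *Hdac9* (32 and 46) were of low level in both areas despite their ratios. Over the 46 genes that reached 10 CPM, Spearman's rho between the RPKM of the libraries was 0.85, a description over genes that share a transcript length in both libraries. The genes are long, with a median transcript length of 6726 bases against 3280 bases over the measured genes. Spearman's rho between length and log2 ratio was −0.04 over these genes and −0.23 over the 8714 genes of known length that reached 10 CPM, given as a description.

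**Figure D3:**
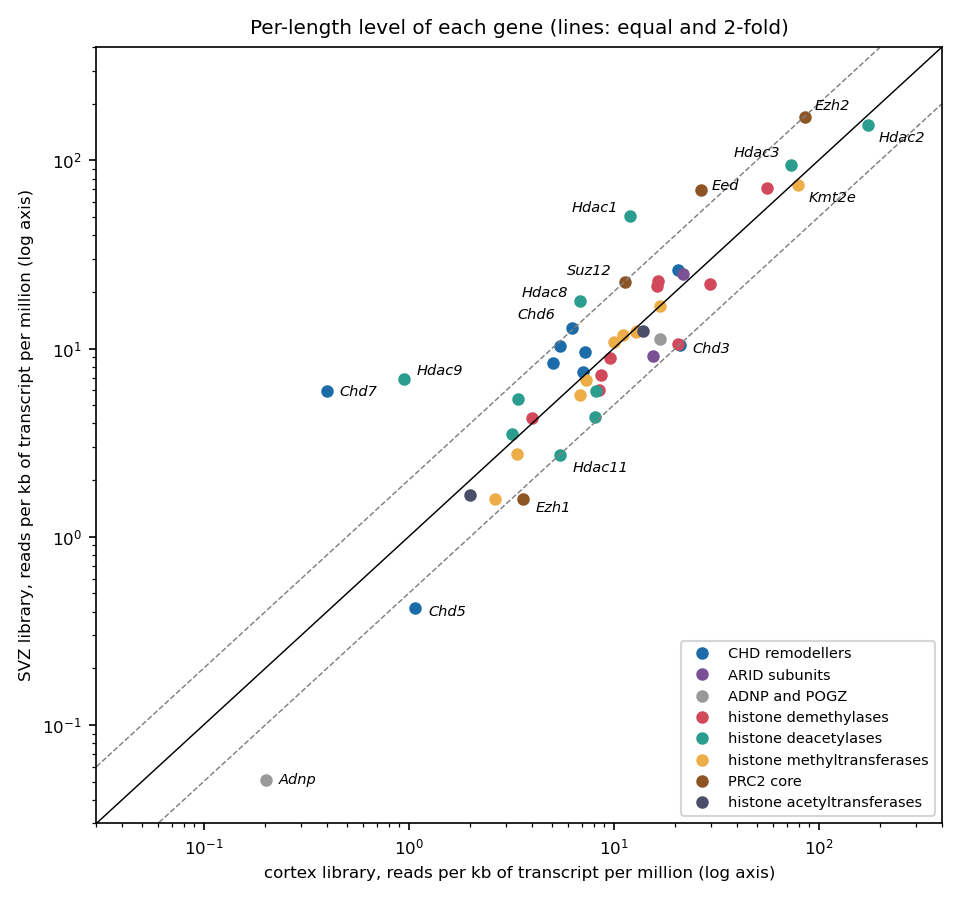
RPKM of each of the 48 genes in the cortex library (x axis, log scale) and the SVZ library (y axis, log scale), coloured by role, with lines at equal levels and at 2-fold. *Ezh2* and *Hdac2* are the most abundant, and *Chd7* and *Hdac9* stand above the upper 2-fold line at low cortex levels.

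A list of 104 further chromatin genes gives the surroundings of these families, and 95 of them reached the same mean of 10 CPM. Past 2-fold were 11 on the SVZ side (11.6%) and 3 on the cortex side (3.16%), beside the backgrounds of 14.9% and 12.3% given above, and the median log2 ratio was 0.16. The SVZ side was led by *Pcgf5*, a subunit of variant PRC1, with 1277 reads against 10, or 24.8 CPM against 0.45 CPM, a log2 ratio of 5.77 (4.89 to 6.84). Next came *Hells*, a remodeller needed for DNA methylation at repeats, at 129 CPM against 6.08 CPM and a log2 ratio of 4.41 (4.17 to 4.67), and *Hat1*, which acetylates newly made histone H4, at 163 CPM against 27.0 CPM and a log2 ratio of 2.59 (2.47 to 2.72). *Suv39h2*, an H3K9 methyltransferase, followed at 1.72 (1.56 to 1.89) and *Mta3*, a NuRD subunit, at 1.36 (1.14 to 1.59) on the log2 ratio scale. The cortex side included *Hdac10*, a polyamine deacetylase, at −1.42 (−1.59 to −1.26) and *Kdm1b*, or LSD2, at −1.05 (−1.15 to −0.94). The *Kdm1b* value rests on the unstranded column, in which STAR leaves out reads that lie in more than 1 gene, and 9.19% of its exon bases are shared with *Dek* on the opposite strand. With the 2 stranded columns summed, its reads were 2.47 times as many and its log2 ratio was 0.32. Among the accessory genes of PRC2, *Aebp2* was 2-fold higher in the SVZ with a log2 ratio of 1.22, while *Jarid2* at 0.16 and *Mtf2* at 0.07 were close to equality. Under the minimum were *Phf1*, with 69 reads in the SVZ and 99 in the cortex, a log2 ratio of −1.74 (−2.21 to −1.28), and *Phf19*, with 327 reads in the SVZ and 0 in the cortex. The counting interval of *Phf19* began at a log2 ratio of 5.24 and had no upper end.

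**Figure D4:**
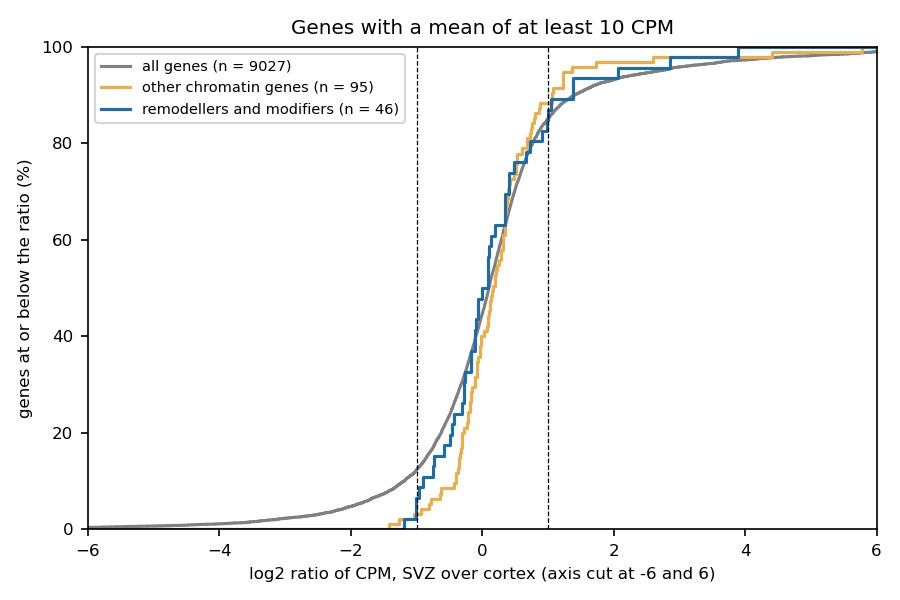
Share of genes (y axis, %) at or below each log2 CPM ratio, SVZ over cortex (x axis) for 46 remodellers and modifiers, 95 other chromatin genes and all 9027 genes that reached a mean of 10 CPM, with dashed lines at 2-fold. The curve of the 46 genes runs close to that of all genes on the SVZ side and has a shorter tail on the cortex side, where 6.52% lie past 2-fold against 12.3%.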

How the data were processed

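RNA from 1 SVZ and 1 cortex piece, cut by LCM from E16.5 mouse brain, was sequenced as paired ends. The authors trimmed adapters with cutadapt 4.1, mapped read 1 to mm10 (equal to GRCm38) with STAR 2.7.9a and deposited raw read counts per gene, 1 unstranded and 2 stranded columns per library. A deposited comparison table by the authors, with counts, CPM, fold change and log10 change, was not used. Whether duplicates were removed is not given in the sources used here. STAR omits reads that map to several places or lie in several genes.

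The unstranded counts were used. The 4 summary lines were left out of the totals, and gene-assigned reads were 59.0% of all SVZ reads and 59.1% of all cortex reads. CPM was computed on 51435667 and 22050693 reads, and the log2 ratio of SVZ to cortex CPM had no pseudocount. Genes that reached a mean of 10 CPM were counted as past 2-fold or not. With 1 library per area no p-value was computed. Intervals are exact Clopper-Pearson intervals at 95%. Positions, transcript lengths, exon overlaps and shared 75-base words came from GENCODE M21 on GRCm38, with a length for 96.5% of the genes of that mean, and promoter windows from RefSeq GRCm38.p6.

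All 48 genes are named by role. Of the 104 other chromatin genes, up to 5 per direction past 2-fold are named, ranked by the end of the interval nearer to 0, and the PRC2 accessory genes were added after their values were seen. A further gene is not reported here. The genes, lists and marker lists were chosen with earlier results of these data known. Alternatives were edgeR 4.0.16 scaling by TMM or by upper quartile, size factors from DESeq2 1.42.0, summed stranded columns, totals that left out the 10 most counted genes, a pseudocount of 1 CPM, SVZ counts thinned to the cortex depth, other minimums (1 CPM, 20 CPM or none), other folds (4 and 1.5) and calls on the whole interval. Work was done in Python 3.11.15 with scipy 1.17.1, pandas 2.3.3, matplotlib 3.10.9 and numpy 2.4.6 and in R 4.3.3, and was tested on simulated data.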

Additional observations from a re-analysis of the deposited data

How the results depend on the processing

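No log2 ratio of the 48 genes past 2-fold changed side under any scaling, count column, thinning or pseudocount. The number at least 2-fold higher in the cortex, 3 of 46 genes, was 5 of 48 without a minimum level (with *Chd5* and *Adnp*) and 1 of the 40 that reached a mean of 20 CPM. Of the 46 it was 7 at 1.5-fold, 0 at 4-fold and 0 where the whole counting interval had to pass 2-fold. Of all genes, 6.75% were at least 4-fold higher in the SVZ and 4.7% in the cortex. Here and below, no share of all genes is given for 1.5-fold, the other minimums or whole intervals. Counts under those settings show only how a number depends on the setting, not whether the listed genes differ from all genes. The number at least 2-fold higher in the SVZ went from 6 to 3 at 4-fold and 11 at 1.5-fold. Of the same 46 genes it was 5 under TMM, DESeq2 and upper-quartile scaling alike and 7 with the SVZ reads thinned. The median log2 ratio of the 46 genes, 0.04, was −0.05 under TMM scaling, −0.05 under DESeq2 size factors and −0.06 under upper-quartile scaling, −0.03 over the 48 genes without a minimum and −0.0012 over the 47 that reached 1 CPM. Among the other chromatin genes the cortex count went from 3 to 1 with summed stranded columns, 8 at 1.5-fold and 0 at 4-fold, and the SVZ count from 11 to 3 at 4-fold and 21 at 1.5-fold. Under TMM, DESeq2 and upper-quartile scaling alike, the SVZ count was 8 of 95 and the cortex count 4. The median log2 ratio of the other chromatin genes, 0.16, was 0.0651 under TMM scaling, 0.0648 under DESeq2 size factors and 0.0592 under upper-quartile scaling, which moved the median of all genes from 0.10 to near 0. Under each of these 3 scalings *Chd6* lay inside 2-fold (0.95 under TMM) and *Kdm2b* past it (−1.05), and *Chd8*, *Kdm4a* and *Ash1l* turned to the cortex side by at most 0.02. *Ezh2* passed 2-fold when the SVZ reads were thinned (1.01), *Hdac7* and *Setd1b* changed sign there, and *Hdac11* fell inside 2-fold with a pseudocount (−0.92). The cause was not tested. Of 336 recomputed ratios of single genes, 253 moved by less than their counting interval, 83 moved further and 0 of the called ones reversed. No paired analysis was possible because SVZ and cortex had a single library each, which also left no replicate to omit. *Adnp*, with 13 and 22 reads, had the widest counting interval of the 48 genes, and the cause of its low count was not tested.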
